A study of Mus musculus with 2 samples.

Results

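Small early islands are short stretches of early replication that lie alone between long late-replicating stretches of the same chromosome. They were chosen by the sign, the length and the neighbours of a replication timing score in mouse embryonic stem cells, and 81 of the 1911 autosomal runs of one sign met the rule. A run is a series of neighbouring positions whose scores share a sign, ended where the next position with a value is over 300 kb away. An island is a run above 0 on one of the 19 autosomes, 300 to 800 kb long, whose neighbours on both sides are runs below 0 of at least 1 Mb. The 81 islands came from the 948 runs above 0 and from the 302 of those that had the right length. They covered 43.0 Mb, 1.79% of the autosomal span.

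The cells were the line 46C of strain 129P2/Ola, derived from a mouse embryo and kept undifferentiated with leukemia inhibitory factor in serum and serum replacement. Cells took up 50 µM of the thymidine analogue BrdU for 2 h and were sorted by DNA content into an early S phase and a late S phase fraction, 10000 cells each. BrdU-labelled DNA was pulled down with an antibody, amplified over the whole genome and sequenced, with 1 library for each fraction. The deposited table joins both libraries in one score per position, smoothed over 300 kb according to its name, so there is no replicate, no depth per library and no test of any difference.

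The score compares the early with the late fraction and has no unit. The sources used here do not give its log base, scaling or zero point, and positive values are read as early replication from the order of the fractions in the table's name. A mammalian genome is copied in a set order, with domains that contain active genes copied first and gene-poor, lamina-bound domains copied last. Replication starts at many origins that fire in groups, and a peak in a timing profile marks a region copied before its surroundings. Origins are frequent near gene starts rich in CpG dinucleotides, which in vertebrates lie mostly at housekeeping and developmental genes.

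The rule used only the score, so what the islands contain is described first by sequence. Shown here are 300-base windows around gene starts (250 bases before and 50 after the start) from RefSeq, build GRCm38.p6, 5′ to 3′, with every CG dinucleotide in capitals. The first 6 are of genes nearest the highest position of islands at both ends of the range of scores, and the last 4 are of genes nearest the lowest position of the late runs beside the islands at Dbt and Mia2.
Mia2, chr12:59095341-59095640, plus strand: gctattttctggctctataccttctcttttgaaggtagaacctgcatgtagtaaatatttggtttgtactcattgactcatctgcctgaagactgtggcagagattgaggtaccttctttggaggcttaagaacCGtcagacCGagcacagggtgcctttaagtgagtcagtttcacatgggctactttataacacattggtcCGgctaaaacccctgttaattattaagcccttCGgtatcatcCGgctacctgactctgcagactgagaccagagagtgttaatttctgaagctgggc
Tspyl1, chr10:34281940-34282239, plus strand: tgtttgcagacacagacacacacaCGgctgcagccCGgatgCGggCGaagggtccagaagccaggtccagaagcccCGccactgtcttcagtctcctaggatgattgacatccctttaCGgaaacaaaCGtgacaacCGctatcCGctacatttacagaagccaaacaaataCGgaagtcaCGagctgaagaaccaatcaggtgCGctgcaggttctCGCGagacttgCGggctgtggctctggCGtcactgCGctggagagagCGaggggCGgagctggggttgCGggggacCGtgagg
Tex10, chr4:48473414-48473713, minus strand: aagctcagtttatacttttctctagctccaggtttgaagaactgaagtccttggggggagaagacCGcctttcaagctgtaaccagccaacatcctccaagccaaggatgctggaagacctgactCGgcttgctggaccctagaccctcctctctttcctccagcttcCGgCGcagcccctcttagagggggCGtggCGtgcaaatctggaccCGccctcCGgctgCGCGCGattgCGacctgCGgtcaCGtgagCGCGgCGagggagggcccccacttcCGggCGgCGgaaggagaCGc
Zfp110, chr7:12834511-12834810, plus strand: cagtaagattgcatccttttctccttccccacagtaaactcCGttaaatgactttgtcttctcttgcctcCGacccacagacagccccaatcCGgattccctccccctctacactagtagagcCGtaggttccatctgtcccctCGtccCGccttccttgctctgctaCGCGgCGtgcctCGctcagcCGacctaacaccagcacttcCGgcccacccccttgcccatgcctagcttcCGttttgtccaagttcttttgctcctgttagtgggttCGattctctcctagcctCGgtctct
Dusp6, chr10:99262981-99263280, plus strand: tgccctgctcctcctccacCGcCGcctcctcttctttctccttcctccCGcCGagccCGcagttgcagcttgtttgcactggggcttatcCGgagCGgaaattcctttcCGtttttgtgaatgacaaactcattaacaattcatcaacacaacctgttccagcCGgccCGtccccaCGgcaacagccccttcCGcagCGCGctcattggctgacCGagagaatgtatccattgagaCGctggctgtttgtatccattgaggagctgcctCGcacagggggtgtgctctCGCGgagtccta
Ccdc34, chr2:110017567-110017866, plus strand: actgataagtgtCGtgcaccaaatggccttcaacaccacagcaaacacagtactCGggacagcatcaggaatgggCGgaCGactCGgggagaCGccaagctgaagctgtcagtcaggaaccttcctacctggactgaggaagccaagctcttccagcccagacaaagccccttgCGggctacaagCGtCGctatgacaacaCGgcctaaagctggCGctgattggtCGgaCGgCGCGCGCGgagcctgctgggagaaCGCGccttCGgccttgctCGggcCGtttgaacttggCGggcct
Olfm3, chr3:115080715-115081014, plus strand: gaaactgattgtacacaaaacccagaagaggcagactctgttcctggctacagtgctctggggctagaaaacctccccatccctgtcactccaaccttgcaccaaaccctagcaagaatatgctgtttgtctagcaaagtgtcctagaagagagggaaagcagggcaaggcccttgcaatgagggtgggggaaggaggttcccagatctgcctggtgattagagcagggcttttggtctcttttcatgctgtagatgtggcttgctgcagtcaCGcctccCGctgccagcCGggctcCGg
Plppr4, chr3:117360827-117361126, minus strand: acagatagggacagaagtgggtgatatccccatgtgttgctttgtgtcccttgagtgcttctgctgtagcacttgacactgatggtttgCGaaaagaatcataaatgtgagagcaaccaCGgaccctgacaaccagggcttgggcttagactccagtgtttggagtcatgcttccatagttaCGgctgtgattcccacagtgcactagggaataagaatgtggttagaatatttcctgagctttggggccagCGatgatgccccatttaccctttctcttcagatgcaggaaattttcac
Clec14a, chr12:58269209-58269508, minus strand: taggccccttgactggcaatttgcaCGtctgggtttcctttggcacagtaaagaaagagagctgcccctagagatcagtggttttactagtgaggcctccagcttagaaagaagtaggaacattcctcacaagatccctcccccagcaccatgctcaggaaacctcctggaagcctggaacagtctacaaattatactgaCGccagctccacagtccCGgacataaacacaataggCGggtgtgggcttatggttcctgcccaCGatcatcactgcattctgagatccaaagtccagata
Gm32936, chr12:60317638-60317937, plus strand: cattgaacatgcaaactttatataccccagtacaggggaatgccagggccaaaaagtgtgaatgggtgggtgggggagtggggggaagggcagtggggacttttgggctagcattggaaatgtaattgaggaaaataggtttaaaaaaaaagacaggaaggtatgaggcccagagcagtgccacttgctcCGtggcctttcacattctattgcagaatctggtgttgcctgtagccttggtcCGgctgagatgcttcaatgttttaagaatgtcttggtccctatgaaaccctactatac

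The windows of Tspyl1 and Tex10 each held 21 CG dinucleotides, that of Zfp110 held 15, that of Dusp6 held 19 and that of Ccdc34 held 23. The window of Mia2 held 5, but another start of the same gene had a window with an observed over expected CpG ratio of 1.04. The 4 windows from the late runs held 2 to 5. That of Olfm3 lies at a start inside the gene body, which begins at chr3:114904078, so it does not show the outermost start. The motif searched was CG, which reads the same on both strands. Over the 20084 windows of protein-coding genes in the table the median was 14, with quartiles of 4 and 25, and 95.6% held at least 1. Tspyl1 encodes a nucleosome assembly protein relative, Tex10 a protein of ribosome biogenesis, Dusp6 a phosphatase that switches off ERK, Olfm3 a secreted olfactomedin and Clec14a an endothelial lectin.

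The islands were steep, mostly single peaks. Their highest scores ran from 0.29 to 1.80 with a median of 1.02 and quartiles of 0.80 and 1.28. A highest score of at least 0.5 was reached by 76 islands, at least 1.0 by 42 and at least 1.5 by 10. The median score within an island ran from 0.12 to 1.40. Lengths ran from 316 to 799 kb with a median of 546 kb, and 49 to 130 positions with a value lay in each island. A single summit was counted in 64 islands, and 17 had more than 1, separated by a dip of at least 0.1. With the length cut into 3 equal stretches, the highest position lay in the central one in 56 islands. Across the 162 edges the score changed by 0.23 to 1.94 within 200 kb, with a median of 1.22.

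The late runs on both sides were long and reached low scores. The islands adjoined 149 different late runs, because 13 of these had an island at each end. These late runs were 1.01 to 13.1 Mb long with a median of 2.19 Mb, and their lowest scores lay between -1.93 and -0.71 with a median of -1.65. In the median profile the score was 0.90 in the first 100 kb to the right of the highest position, -0.52 between 300 and 400 kb and -1.20 between 600 and 700 kb.

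**Figure D1:**
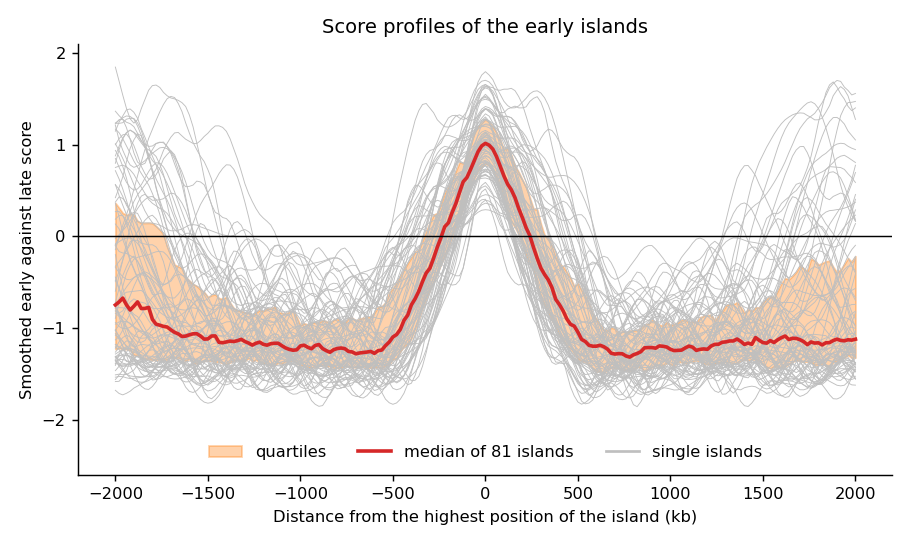
Smoothed early against late score (no unit) against distance in kb from the highest position of each island, for the 81 islands (grey lines), with their median (red) and quartiles (band). The curves rise from about the same late level on both sides to highest scores of 0.29 to 1.80, and neighbouring early runs appear again beyond about 1 Mb in some of them.

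Most islands stayed below the long early runs and overlapped the other short ones. The 19 early runs of 5 Mb or more had highest scores of 1.49 to 2.11 with a median of 1.93. The other 221 early runs of 300 to 800 kb, whose neighbours broke the rule, had a median of 0.99 and a range of 0.18 to 1.88. These values are described only, since the score set the classes.

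Longer islands had higher scores. The 27 shortest (316 to 426 kb) had a median highest score of 0.77, the 27 of middle length 1.05 and the 27 longest (621 to 799 kb) 1.28. Over the 81 islands, length and highest score had Pearson's r = 0.66 and Spearman's rho = 0.66, and r = 0.63 without the 2 islands farthest from the median length. Both measures come from one smoothed curve, in which a taller peak also crosses 0 farther out, so they are not independent. Against the summed length of both neighbouring late runs the highest score had r = -0.07 and rho = 0.03. The lowest scores on the left and on the right had r = 0.08 and rho = 0.22 over the 81 islands.

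**Figure D2:**
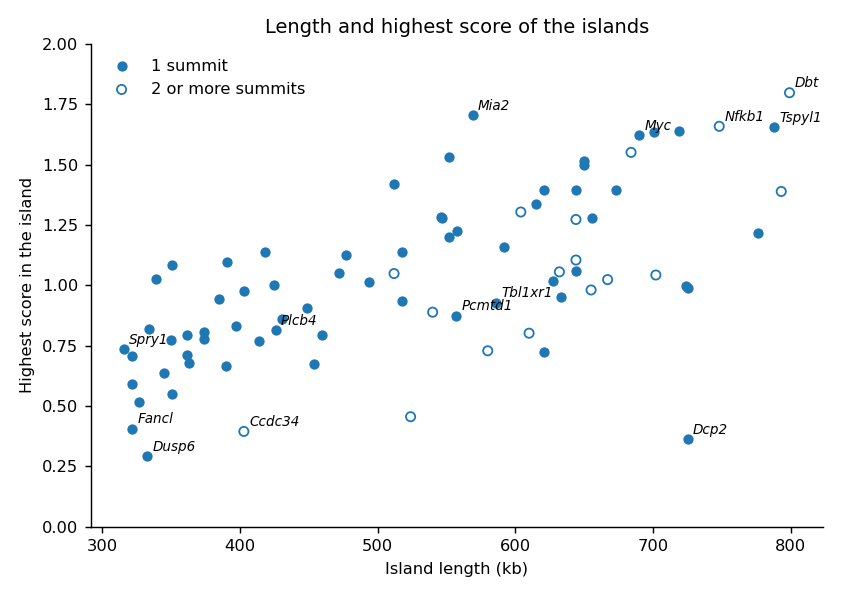
Highest score (no unit) against length in kb for the 81 islands, each point 1 island, with named examples. The points rise from the Spry1 island (316 kb, 0.74) to the Dbt island (799 kb, 1.80), while the Dcp2 island (725 kb, 0.36) and the Myc island (690 kb, 1.62) have like lengths and unlike scores.

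The gene nearest the highest position of each of the 10 highest islands was within 30.0 kb of it. The highest, chr3:116261623-117060991, reached 1.80 within Dbt, a subunit of the branched-chain keto acid dehydrogenase complex. It held 11 protein-coding genes, among them Sass6, a centriole assembly factor, and the tRNA methyltransferase gene Trmt13 at 1.69. The island at chr12:58784582-59353816 reached 1.70 within Mia2, which encodes a cargo receptor of endoplasmic reticulum exit sites, and the splicing-linked gene Pnn in it scored 1.67. The island at chr3:135118956-135866540 reached 1.66 within Nfkb1, the gene of the p50 subunit of NF-kappa-B. It also held Ube2d3, a ubiquitin-conjugating enzyme, at 1.20 and the centromere motor Cenpe at 1.18.

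The island at chr10:33724261-34511796 reached 1.66 at 29.2 kb from Tspyl1 and held 14 genes. On chromosome 18 an island reached 1.64 within Phax, an adaptor for the export of small nuclear RNA. It included Lmnb1, which encodes lamin B1, at 1.61 and Aldh7a1 at 1.57. The island at chr4:48112639-48813994 reached 1.63 at 30.0 kb from Tex10. The remaining 4 of the 10 had their highest position at Myc (1.62), Zfp110 (1.55), Grsf1, a mitochondrial RNA-binding protein gene (1.53), and Ston2, an endocytic adaptor gene (1.52). The Zfp110 and Grsf1 peaks lay within those genes, and the Myc and Ston2 peaks 8.0 and 3.6 kb from them.

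The lowest islands crossed 0 only slightly. The island at chr10:99079617-99413001 reached 0.29 at 17.1 kb from Dusp6, and the late run on its right was 8.58 Mb long. Next came an island of 725 kb on chromosome 18 that reached 0.36 within Dcp2, the messenger RNA decapping enzyme. The 3 others were at Ccdc34 (0.40), at Fancl, the ubiquitin ligase of the Fanconi anaemia pathway (0.41), and at Itm2b (0.46). Rb1, the retinoblastoma gene, lay in the Itm2b island with a score of 0.17.

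The shortest islands included 1 that stood alone in an especially long late stretch. The island at Tnfrsf11a, the gene of the receptor RANK, was 327 kb long at chr1:105726630-106054050 and reached 0.52. The late runs beside it were 11.56 and 12.01 Mb long. The shortest of all, 316 kb at chr3:37477068-37793266, reached 0.74 within Spry1, a feedback inhibitor of receptor tyrosine kinase signalling. The islands at Ankrd17, Fancl and Hhla1 were each 322 kb long. Besides Dbt, Tspyl1 and Nfkb1, the longest islands were at 1110004F10Rik (793 kb, highest score 1.39) and at Gcnt2, a glycan-branching enzyme gene (776 kb, 1.22).

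Near the lower length limit, runs of 276, 294 and 299 kb at Phf3, Stap1 and Fut10 reached 0.70, 0.83 and 0.66, against 0.74, 0.71 and 0.59 in the 3 shortest islands. Near the upper limit, runs of 803, 822 and 827 kb at Klhl2, Lpin3 and Actn2 reached 1.05, 1.35 and 1.21, against 1.66, 1.39 and 1.80 in the 3 longest islands. Runs at Thg1l, Rps6 and Ssr3 missed the rule because a late neighbour was 943, 948 or 955 kb long, while the islands at Lmo7, Gng4 and Dcp2 met it with 1010, 1017 and 1075 kb.

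The islands held 445 protein-coding genes by gene midpoint, 10.4 per Mb. The late runs beside them held 1192, or 2.81 per Mb, so gene density was several-fold higher inside. It was 11.9 per Mb in the other short early runs, 19 per Mb in early runs of 5 Mb or more and 8.55 per Mb over all autosomes. All 445 have a score above 0, which the rule forces, against 74.4% of autosomal protein-coding genes with a score. Long noncoding RNA genes numbered 235, 5.47 per Mb against 2.88 in the late neighbours and 8.99 in the long early runs. Their density was 6.95 per Mb in the other short early runs and 5.13 over all autosomes. Pseudogenes numbered 218, 5.07 per Mb against 3.28 in the late neighbours and 3.72 in the long early runs. The other short early runs had nearly as many pseudogenes, 4.87 per Mb, and all autosomes had 3.9 per Mb. With the zero point set to the autosomal median of the score (-0.30), 64 islands with 295 genes (8.17 per Mb) resulted, and 48 of the 81 islands were met again.

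Most islands had few genes. The median was 5 and the highest number 25, with 22 islands holding 1 to 3 genes, 41 holding 4 to 7 and 16 holding 8 or more. The gene density of the 27 islands with the lowest highest scores was 9.68 per Mb, of the middle 27 it was 10.4 and of the highest 27 it was 10.8. The number of protein-coding genes and the highest score had r = 0.39 and rho = 0.35 over the 81 islands, and r = 0.39 without the 2 islands farthest from the median number of genes. Longer islands hold more genes (r = 0.42 between number and length), so this relation shares length with the first one.

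Genes were densest at the highest position itself. In the 100 kb bins to its left and right there were 11.4 and 13.0 protein-coding genes per Mb, which fell to 8.89 and 9.88 in the next bins out and to 3.09 and 2.72 between 600 and 700 kb. The highest position was within 50 kb of a protein-coding gene in 73 of 81 islands (90.1%), against 66.6% of all autosomal positions and 85.0% of all island positions. It was inside a gene in 40 islands (49.4%), against 43.6% of autosomal positions and 53.3% of island positions. Being inside a gene was thus no more frequent at the highest position than elsewhere in the islands. The lowest position of the late runs was within 50 kb of a gene in 55 of 149 (36.9%) and inside one in 37 (24.8%). Over all positions of these late runs the shares were only somewhat higher, at 43.2% and 28.1%.

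**Figure D3:**
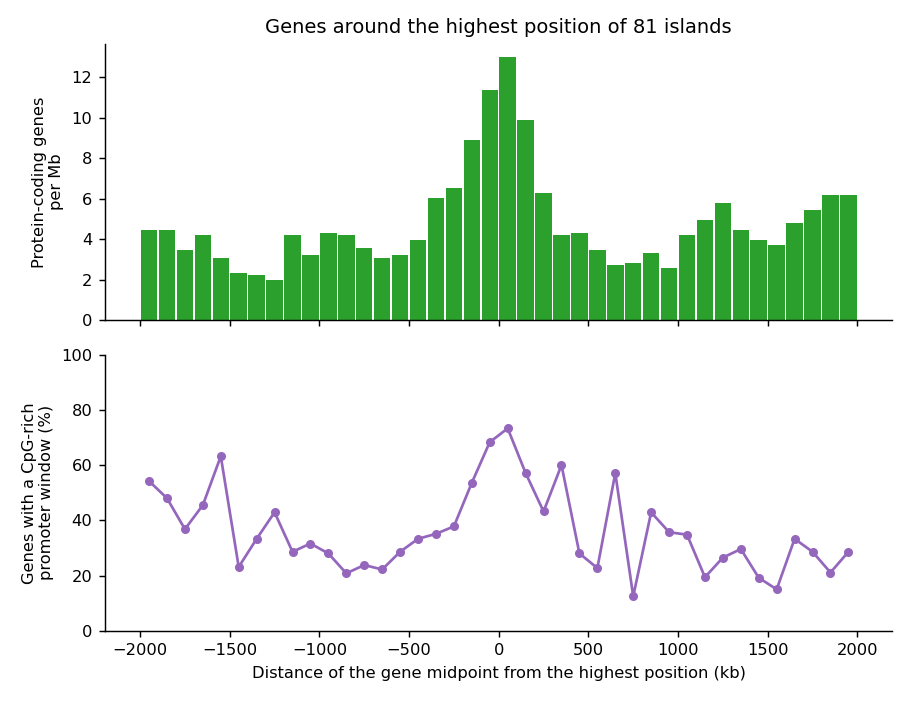
Protein-coding genes per Mb and share of genes with a CpG-rich start window (%) in 100 kb bins against distance in kb from the highest position, summed over the 81 islands. Density is highest in the bins that touch the highest position (11.4 and 13.0 per Mb), and so is the CpG-rich share (68.3% and 73.3%).

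Exactly 1 protein-coding gene was found in 5 islands. Myc, the growth-promoting transcription factor gene, was alone in an island of 690 kb at chr15:61735635-62425726. The gene itself, 5.02 kb long at chr15:61985341-61990361, scored 1.61 against 1.62 at the highest position. Tbl1xr1, a corepressor subunit gene, was alone in chr3:21773950-22360439, and its start lay 3.6 kb from the highest position (0.93). Pcmtd1 was alone in chr1:6904650-7462118 with a score of 0.88 at its midpoint, which equals the highest score to 2 decimals. The other single genes lay less centrally. Ccdc54 was 75.5 kb from the highest position (0.82) of chr16:50324264-50658041, and its window held no CG. Fancl began 15.3 kb from the highest position (0.41) of its island and crossed the right edge, with 0.07 at its midpoint.

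No protein-coding gene had its midpoint in 2 islands, and in both a long gene began inside the island and ran out of it. These examples, like the genes across edges below, were picked after their values were seen. In chr2:135376401-135802035 the start of Plcb4 lay 7.0 kb from the highest position (0.81), with 50 CG in its window. Its neighbour Plcb1 crossed the left edge, and both encode beta-type phospholipases C that act downstream of G protein-coupled receptors. In chr10:27853583-28227142 (highest score 0.81) the start of Ptprk, a receptor tyrosine phosphatase gene, lay 71.9 kb from the highest position. Counting any overlap of the gene body, no island was without a protein-coding gene.

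**Figure D4:**
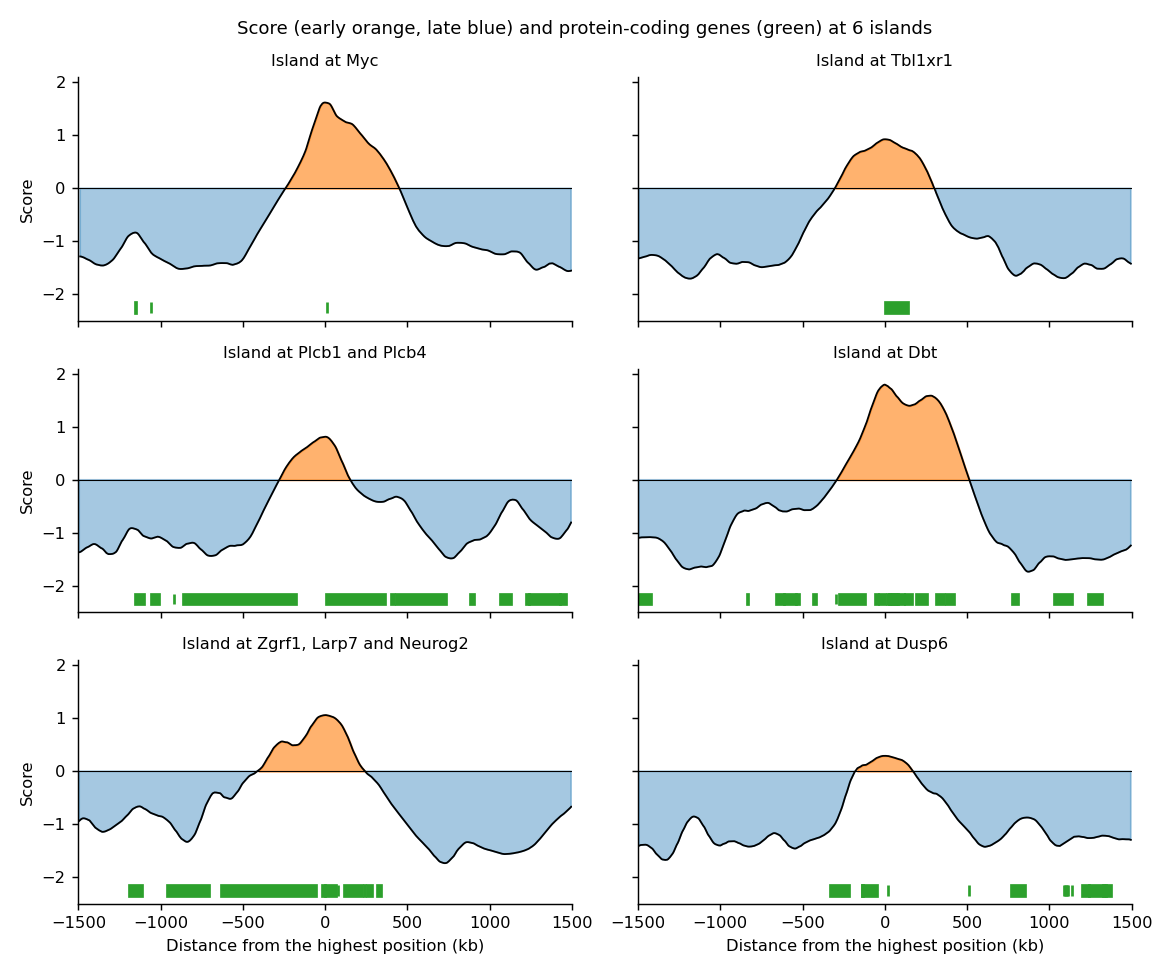
Score (no unit) against distance in kb from the highest position for 6 islands, with values above 0 in orange, values below 0 in blue and protein-coding gene bodies as green bars whose outline makes the smallest genes visible. Myc stands alone under a peak of 1.62, the peak of 0.81 lies at the start of Plcb4, and the Dusp6 island reaches 0.29.

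Genes of the islands had the highest median length of the classes compared, but few were very long. The median was 30.2 kb (95% order interval 25.8 to 35.4 kb, treating genes as independent), with quartiles of 12 and 59.9 kb. In the late runs beside it was 25.9 kb (quartiles 5.64 and 87.6 kb), which lies inside that interval. The other short early runs had 21.9 kb, the long early runs 16.8 kb and all autosomes 17.6 kb. Genes over 200 kb made up 1.57% (7 of 445), against 13.1% (156 of 1192) in the late runs beside, 2.82% in the other short early runs and 1.72% in the long early runs. A gene counts here by its midpoint, and an island of at most 800 kb has less room for the midpoint of a very long gene than a late run has.

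Gene starts in the islands had a CpG content close to that in long early runs. A gene was called CpG-rich when a window of it had an observed over expected CpG ratio of at least 0.6 and at least 50% G and C. Of the 445 genes, 323 had a window in the table, and 201 of these were CpG-rich (62.2%, 95% exact binomial interval 56.7 to 67.5%), against 49.9% of all autosomal genes with a window. The share was 30.2% (267 of 883, 27.2 to 33.4%) in the late runs beside, 56.7% in the other short early runs and 61.9% (59.8 to 64.0%) in the long early runs. The intervals cover counting error only and treat genes as independent, although neighbours and gene families are not. The table has no windows of chromosome 18, so the 8 islands there do not enter.

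The CpG-rich genes were spread over most islands. Of the 73 islands on the other chromosomes, 59 held at least 1 CpG-rich gene, 9 had no gene with a window and 5 had windows of which none was CpG-rich. The gene nearest the highest position was CpG-rich in 37 of 52 islands where it had a window (71.2%), and the gene nearest the lowest position of the late runs in 35 of 101 (34.7%). Over all genes with a window, the share was 75.6% in the 27 shortest islands, 60.9% in those of middle length and 54.3% in the longest. By highest score the order was less spread, at 66.7%, 61.0% and 60.4% from the lowest to the highest 27. The 2 gene-richest islands, both among the longest, differed widely, with 12 of 20 CpG-rich in the Zfp110 island and 2 of 14 in the one nearest Zfp54. Whether the order by length holds apart from such gene families was not tested.

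**Figure D5:**
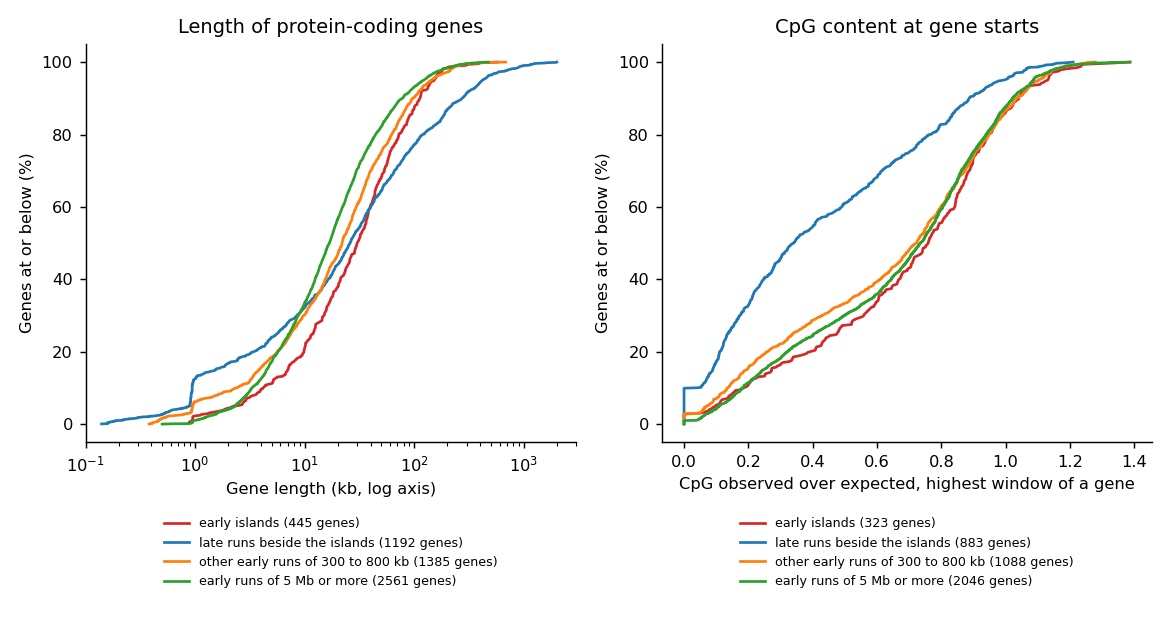
Cumulative share of protein-coding genes (%) against gene length in kb (log axis, left) and against the highest observed over expected CpG ratio of a gene's windows (right) for the islands (red), the late runs beside them (blue), the other early runs of 300 to 800 kb (orange) and early runs of 5 Mb or more (green). The red curve of length rises late (median 30.2 kb) but has few very long genes, and the red curve of CpG content lies beside the other early classes (medians 0.76, 0.72 and 0.73) and far from the late runs (0.34).

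Island edges lay inside protein-coding genes at 62 of 162 edges (38.3%), against 43.6% of all autosomal positions. This share lay between the 53.3% of island positions and the 28.1% of positions in the late runs beside. The 62 genes across an edge had a median length of 160.0 kb, and 24 were over 200 kb long. Any position inside a gene falls more often in a long gene than in a short one, so these lengths are a description only. Of the 45 with a window, the start lay inside the island in 25 and outside in 20. Sox6, a transcription factor gene of cartilage and muscle, scored 1.23 at its 5′ end and -1.25 at its 3′ end. Slc4a4, a bicarbonate cotransporter gene, went from 0.98 to -1.23 in the same sense. Syt1, the calcium sensor of synaptic vesicle release, ran the other way, from -1.41 at its 5′ end to 1.38 at its 3′ end, and so did Galntl6, from -1.34 to 0.90. Starts inside the island were CpG-rich in 9 of 25 of these genes and starts outside in 11 of 20.

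Pluripotency genes were the list with the largest share in islands, 4 of 28 against 2.17% of all protein-coding genes. Zfp42 (Rex1) scored 0.65 in a chromosome 8 island of 540 kb shared with Triml1, Triml2 and Adam26b. Dppa2 (0.88) and Dppa4 (0.79), which encode DNA-binding proteins of early embryos, lay together in chr16:48127789-48851965 (highest score 1.00), and Fbxo15 (0.92), a ubiquitin ligase gene used as a stem cell marker, lay in a chromosome 18 island. All 28 scored above 0, against 74.4% of autosomal protein-coding genes with a score, so none could lie in the late runs beside islands. No count of another gene list is set against this one by a test, and the list's choice was made with earlier results known. The 19 housekeeping genes of the list and the 15 blood genes had no member in an island. With lists this short, that is also what the 2.17% share of all genes would mostly give.

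Genes of DNA replication had 2 of 45 members in islands, the helicase subunit Mcm5 (1.20), the gene nearest the highest position of its island, and the ligase Lig1 (0.39). Among ribosomal protein genes, Rps7 scored 0.99 and Rps13 0.93 in islands. Mitochondrial ribosomal and respiratory chain genes had 5 of 176 (2.84%) and ubiquitin ligases 7 of 281 (2.49%), both near the 2.17% of all genes.

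Lists of developmental regulators had small numbers in islands, at shares above or below the 2.17% of all genes. Of the 25 neural progenitor genes, 2 (8.0%) lay there, Neurog2, a proneural factor, at 0.95 and Pax3, a neural crest factor, at 0.05. Sox, Fox, Tbx and Gata factors had 3 of 76 (3.95%) and bHLH factors 2 of 59 (3.39%). The forkhead genes Foxf2 (0.52), Foxc1 (0.40) and Foxq1 (0.12) were the whole protein-coding content of a chromosome 13 island of 362 kb that reached 0.71. Hand2, a heart and limb factor, scored 0.52, and Pou4f3, a hair cell factor, 1.17. Alb, the gene of serum albumin, was the single liver gene of 14 (7.14%) in an island, with 0.04 beside the edge of the Ankrd17 island. Homeobox and paired box genes had 2 of 166 members (1.2%) in islands.

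Clustered families entered islands through a few loci. Of 388 Zfp zinc finger genes, whose proteins mostly bind DNA and often silence transposons, 22 lay in islands (5.67%). The island at chr17:21311620-22036257, whose highest position is 3.0 kb from Zfp54, held 13 of them among 15 genes. The gene-richest island, chr7:12651758-13335837, held 5 of them among 25 genes. That island also carried Trim28 (1.40), the corepressor that many of these zinc finger proteins recruit. Vomeronasal receptor genes, expressed in pheromone-sensing neurons, had 10 of 349 members in 3 islands, 7 of them in the chromosome 7 island, and 94 (26.9%) in the late runs beside islands. Olfactory receptor genes had 3 of 1103 (0.272%) in islands, all in the Emc4 island on chromosome 2, and 38 in the late runs beside.

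Most genes of the lists for neuronal contacts and signalling lay neither in the islands nor in the late runs beside them. All 31 long neuronal and fragile site genes scored below 0, so the rule keeps them out of islands, and 9 were in the late runs beside. Neurotransmitter receptors had 2 of 88 (2.27%) in islands, Chrm5 and Htr1f, and 13 (14.8%) beside. Ion channels had 1 of 161 in islands, Trpm6, and 12 (7.45%) beside. Cadherins and protocadherins had 0 of 90 in islands and 4 (4.44%) beside. Cytochromes P450 had 0 of 99 in islands and 10 (10.1%) beside, and imprinted genes 0 of 17 in islands and 4 (23.5%) beside. Of all protein-coding genes, 5.80% lay in the late runs beside the islands and 2.17% in the islands, so counts beside the islands start from a higher level.

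In the late runs beside the 5 highest islands, the gene nearest the lowest position was 0 to 742.4 kb away. Next to the Dbt island the nearest genes to these positions were Olfm3 (-1.14) and Plppr4 (-1.41), a lipid phosphatase-related gene of axons. Beside the Mia2 island they were Clec14a (-1.68) and Gm32936 (-1.62), and beside the Nfkb1 island Cxxc4 (-1.32), a Wnt pathway inhibitor, and Emcn (-1.52), an endothelial mucin. Beside the Tspyl1 island the lowest position on the left lay within Nkain2 (-1.23), which is 1207.9 kb long, and on the right the nearest gene, Marcks, was 742.4 kb away. Beside the Phax island the nearest genes were Gm4951 (-1.09) and Gramd3, which belongs to the island itself and lay 381.1 kb from the lowest position.

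MicroRNA genes numbered 19 in 14 islands, out of 1134 on all autosomes, of whose span the islands cover 1.79%. Of the 19, 16 matched the table of mature sequences. The cluster of miR-302 and miR-367, abundant in pluripotent cells, lay within Larp7 (1.06) in chr3:127152431-127796392, an island that reached 1.06. The cluster also holds miR-302a, whose 3p arm was not among the sequences used here. The other 3p arms from RefSeq (GRCm38.p6) are shown 5′ to 3′ because 3 of the 4 printed arms share the letters AAGUGCU. The seed (bases 2 to 8) is in capitals.
mmu-miR-302b-3p: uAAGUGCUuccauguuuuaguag
mmu-miR-302d-3p: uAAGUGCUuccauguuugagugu
mmu-miR-302c-3p: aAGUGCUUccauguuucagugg
mmu-miR-367-3p: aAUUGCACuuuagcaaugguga
The arms of miR-302b and miR-302d had the same seed, and that of miR-302c had these letters 1 base nearer its 5′ end. The islands also held Mir155, a microRNA gene of lymphocyte activation, in the Mrpl39 island, and Mir107 and Mir186 in the islands around Kif20b and Cth. Cth scored 0.95 and Kif20b 0.77, but these are not the scores of the microRNA loci. Mir186 lay within Zranb2 (0.02), which crosses the left edge of its island, and Mir107 within Pank1 (0.56). These loci were picked after the list of matches was seen.

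Every autosome had at least 1 island, but not in proportion to length. Chromosome 18 had 8, or 9.13 per 100 Mb, and chromosome 16 had 6, or 6.32 per 100 Mb. Chromosome 6, with a longer span, had 1 (0.68 per 100 Mb), and chromosomes 2 and 3 had 7 each. Islands that shared a late run formed 10 chains with 23 islands in all. On chromosome 15 the Myc island (1.62) was followed by islands at Cyrib (1.13) and Hhla1 (0.71), separated by late runs of 1.37 and 1.44 Mb. The longest chain, on chromosome 16, had 4 islands nearest Htr1f (1.09), Cxadr (0.55), Mrpl39 (0.67) and N6amt1 (1.02), across late runs of 13.1, 6.04 and 2.24 Mb.

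The mirror class, late runs of 300 to 800 kb between early runs of at least 1 Mb, had 28 members among 246 late runs of that length, against 81 among 302 for the islands. Both numbers depend on the zero point, and with zero at the autosomal median there were 42 members of the mirror class against 64 islands. Their lowest scores ran from -1.53 to -0.36 with a median of -0.97. They held 12.5 protein-coding genes per Mb in all, but a median of 2 per region against 5 in the islands. The highest number in 1 region was 47, while 4 of the 28 had no gene and 6 had 1. Their median gene length was 4.0 kb, and 17 of 134 genes with a window were CpG-rich (12.7%, exact interval 7.57 to 19.5%) against the 62.2% above.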

How the data were processed

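The deposited table gives 384798 positions with a score that joins the early and the late S phase library, smoothed over 300 kb per the file name, of which 4 have no value. Reads were aligned with Bowtie2 to mm10, per the submitters' processing notes. How the reads became the score, with which log base and zero point, was not given in the sources used here. The number of unused columns of per-sample values is 0. Library depth is unknown.

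Runs of one sign were formed on the 364448 autosomal positions in Python 3.11.15 with pandas 2.3.3, numpy 2.4.6 and scipy 1.17.1. The code of the search was run on a simulated profile, and 188 of 188 planted islands were recovered. That profile was not smoothed, its noise could not change a sign, and the planted islands met the rule by design. The run therefore checks the code only, not how well islands are found in the real score. Genes and sequences came from RefSeq GRCm38.p6 (on chromosomes the same coordinates as mm10), after leaving out 348 genes of scaffolds. A gene took the region of its midpoint and the score of the nearest position within 100 kb. Of 20554 autosomal protein-coding genes, 80.1% had a start window. Named genes are those nearest the highest position of the 10 highest, 5 lowest, 5 longest, 5 shortest and 5 gene-richest islands, genes of islands with 1 gene, list members in islands, and genes nearest the lowest position beside the 5 highest islands. Others were picked after their values were seen or are neighbours of named genes. The members and lists were chosen with earlier results of these data known. No test was made, because there is 1 library per fraction.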

Additional observations from a re-analysis of the deposited data

How the results depend on the processing

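No paired analysis was possible because there is 1 library per fraction and both are joined in 1 score. Of the recomputed values, 73 stayed within the counting or order interval of the reported value or within 1.5 times the reported count, and 18 did not. Taking the autosomal median score as zero, the median highest score was 0.86, with 295 genes, 8.17 genes per Mb and 1 island without a gene. Islands of 400 to 800 kb left 1 without a gene. With late neighbours of at least 0.5 Mb there were 135 islands, 72.3 Mb, 768 genes and 125 highest positions near a gene, and with at least 2 Mb there were 25 islands, 13.2 Mb, 159 genes, 12 genes per Mb, 1 island without a gene and 24 highest positions near a gene. Counting any overlap left 0 islands without a gene. A CpG ratio of at least 0.75 gave 49.2% CpG-rich genes, and 40 highest positions lay inside a gene. Chosen after seeing the data, the autosomal median as zero gave 42 late islands between early runs against 28, leaving out the 2 gene-richest islands gave 405 genes, 9.75 per Mb and 64.7% CpG-rich, the first window of each gene gave 57.3%, and leaving out islands with several summits gave r = 0.65 for length and highest score. Smoothing over 300 kb limits the detail of islands not much wider than that. No library could be left out and no other smoothing width was used here.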

Other observations

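The X chromosome was outside the rule, and the same search found 3 islands there. The first, chrX:68501611-68898524, reached 0.46 at 21.6 kb from Fmr1, the gene silenced in fragile X syndrome, and held 3 protein-coding genes. The second, chrX:77324410-77824550, reached 0.91 at 0.8 kb from Tbl1x, a relative of the Tbl1xr1 gene that stood alone in an autosomal island. The last, chrX:157295427-157824517, reached 1.21 within Sms, which encodes spermine synthase, and held 5 protein-coding genes.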
